A study of Mus musculus with 25 samples.

Results

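Trem2, Tyrobp and the Fc receptor genes with their shared signalling partners were followed across 25 RNA-seq libraries of mouse brain. The set holds 9 genes, chosen by symbol from the 23351 genes of the deposited table: Trem2, Tyrobp, Fcer1g, Fcgr1, Fcgr2b, Fcgr3, Syk, Plcg2 and Inpp5d. All 9 were found. They were listed with earlier results of these data known, in which Trem2 and Tyrobp stood among the genes that rose at Day 5, so their levels and changes are given as a description and are not independent evidence of a response. The libraries were made from laser capture microdissection, in which chosen areas are cut from a tissue section under the microscope, and their source is labelled as oligodendrocyte precursor cells, the dividing glia that give rise to myelin-forming cells. There were 7 libraries from Day 15 of white matter stroke, 8 from Day 5 of white matter stroke and 10 labelled Control. In this kind of stroke, blood supply to myelinated fibre tracts is lost. Strain, sex, age in weeks, the way the stroke was made, what was done to controls and which libraries share an animal could not be learned from the sources used here. If some libraries came from 1 animal, the p-values understate the error, since they reflect the spread between these libraries alone.

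Trem2 is a surface receptor of microglia and other myeloid cells that senses lipids, lipoproteins such as Apoe and cell debris. Its own tail is short, and it signals through Tyrobp (also called DAP12), a membrane adaptor that carries an immunoreceptor tyrosine-based activation motif. The activating Fc receptors Fcgr1 and Fcgr3 bind antibody and depend in the same way on the adaptor Fcer1g, the common gamma chain. When either adaptor is phosphorylated, the kinase Syk docks on it and activates, among others, the phospholipase Plcg2. Fcgr2b is the inhibitory Fc receptor, and the lipid phosphatase Inpp5d (SHIP1) is recruited to it and restrains the same signals. In brain these genes are known for their use in microglia, and they are not markers of oligodendrocyte precursors.

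The start regions of Trem2, Fcer1g and Syk are shown first, because these genes passed as higher at Day 5, as did Tyrobp, which is named only. Sequences are from RefSeq on build GRCm38.p6, each 100 bases before an annotated transcription start, written along the gene's strand, and 8 of the 9 genes were matched there. The capitals mark the letters GAGGAA or their reverse complement TTCCTC, the core that the myeloid factor PU.1 prefers, a motif picked after the sequences had been read. The Trem2 window lies at chr17:48346301-48346400 on the plus strand and the Fcer1g window at chr1:171234350-171234449 on the minus strand. Syk has 2 annotated starts, the upstream one with its window at chr13:52583337-52583436 and the downstream one at chr13:52596782-52596881, both on the plus strand.
Trem2: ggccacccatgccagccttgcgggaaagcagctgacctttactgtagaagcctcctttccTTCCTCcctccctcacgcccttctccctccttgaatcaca
Fcer1g: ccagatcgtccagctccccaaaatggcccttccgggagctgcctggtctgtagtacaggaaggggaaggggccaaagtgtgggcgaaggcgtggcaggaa
Syk, upstream start: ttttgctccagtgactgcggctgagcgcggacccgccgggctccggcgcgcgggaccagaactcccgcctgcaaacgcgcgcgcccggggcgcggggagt
Syk, downstream start: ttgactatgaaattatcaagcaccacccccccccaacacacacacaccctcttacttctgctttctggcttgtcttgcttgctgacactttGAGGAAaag
The window of Inpp5d, which narrowly missed the threshold at Day 5, lies at chr1:87620212-87620311 on the plus strand.
Inpp5d: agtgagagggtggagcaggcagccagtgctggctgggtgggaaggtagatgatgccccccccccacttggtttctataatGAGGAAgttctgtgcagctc
Counted on both strands over whole windows of 250 bases before to 50 after each start, the 6 letters GAGGAA were found for 5 of 8 genes (Trem2, Fcgr1, Fcgr3, Syk and Inpp5d), against 31.3% of the 27025 genes in that collection. The 8 letters GAGGAAGT, which contain them, were found for Inpp5d alone of the 8, against 3.69% of all genes. A match of so few letters describes the sequence and is not evidence of a bound site.

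Values are RPKM as deposited, which corrects reads for transcript length and library total, so levels may be set side by side between genes. The depth behind a value is unknown. Changes are on the log2(RPKM + 1) scale, which understates the change of low genes, and come from 1 limma fit over the 4319 genes that reached an RPKM of 1 in 7 or more libraries, with Benjamini-Hochberg adjustment over all of them. Of the 9 genes, 7 entered this fit, and Fcgr2b and Plcg2 fell below its filter and were not tested. A gene that enters only through the group in which it is high had to differ, so the counts below describe 7 genes and not the whole set. Syk entered through stroke libraries alone, with an RPKM of 1 in 6 Day 5, 3 Day 15 and 0 control libraries. Of the 10 controls, Fcgr3 reached that level in 1, Trem2 and Inpp5d in 2, Fcgr1 in 3, Tyrobp in 4 and Fcer1g in 6. Controls alone would thus not have admitted any of the 7 genes.

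The libraries differed in content. Genes that reached an RPKM of 1 numbered 1749 to 5266 at Day 15 (median 2509), 2353 to 6592 at Day 5 (median 4006.5) and 1306 to 4320 in controls (median 2329.5). Of all RPKM, Rn45s (precursor of ribosomal RNA) accounted for 68.0% in Day 5 replicate 10 and 73.4% in Control replicate 5. The RPKM sum without Rn45s was not equal between libraries. It ran from 11722 to 51081 at Day 15 (median 35366), 15070 to 69709 at Day 5 (median 36696.5) and 7210 to 33982 in controls (median 18175). The levels below are not scaled for this. Without both, Syk no longer passed at Day 5 (limma adjusted p = 0.0634) and Inpp5d did (limma adjusted p = 0.0342). Day 5 replicate 4 and Day 15 replicate 5 resembled each other most in their deviations from their group means, and without both Fcer1g no longer passed at Day 5 (limma adjusted p = 0.0559). Microglia markers stood high with stroke: the summed level of 17 genes ranged from 67.5 to 1650.5 RPKM at Day 15, from 85.8 to 767 RPKM at Day 5 and from 13.2 to 124 RPKM in controls. All 17 were above 0 in each group. Day 15 replicate 5 held 1376.9 RPKM of Ctss alone, and without Ctss the sums ran from 57.7 to 493.4 RPKM at Day 15, from 40.6 to 552 RPKM at Day 5 and from 9.25 to 116 RPKM in controls. Of the 16 tested, 0 passed at Day 15 and 4 at Day 5, all higher. Of all genes tested, 0.0926% passed as higher at Day 15 and 6.02% at Day 5. The 14 macrophage and monocyte markers summed to between 9.11 and 386 RPKM at Day 15, 76.7 and 2272 RPKM at Day 5 and 0.736 and 51.1 RPKM in controls. Lyz2 made up 2210 RPKM of the highest sum, and without Lyz2 the medians were 5.50 RPKM at Day 15, 59.9 RPKM at Day 5 and 6.92 RPKM in controls, so that the Day 15 median was no longer above that of controls. Only 6 of the 14 entered the fit. Of these, 0 passed at Day 15 and 5 at Day 5, all higher, beside the same shares of all genes. The 11 markers of oligodendrocyte precursors summed to medians of 26.8 RPKM at Day 15, 25.5 RPKM at Day 5 and 12.0 RPKM in controls. Their ranges overlapped, at 11.6 to 271 RPKM, 13.0 to 81.4 RPKM and 7.29 to 112 RPKM in the same order. The 8 markers of myelinating oligodendrocytes had medians of 166 RPKM at Day 15, 160 RPKM at Day 5 and 590 RPKM in controls. The 6 of astrocytes had 156, 47.8 and 57.6 RPKM in the same order. The 6 markers of B cells and the 6 of mast cells and basophils, which also use Fc receptors, summed to medians of at most 0.369 RPKM in each group. The other immune lists stood higher with stroke. The 9 neutrophil markers summed to medians of 7.10 RPKM at Day 15, 5.50 RPKM at Day 5 and 0.399 RPKM in controls. The 10 of T and NK cells summed to 0.842, 1.79 and 0.372 RPKM in the same order. In each group 1 neutrophil marker and 0 markers of T and NK cells had a mean of at least 1 RPKM. In bulk samples such as these, fewer cells of a type and less RNA per cell cannot be told apart. The part of the microglia and macrophage signals in the results below was not tested.

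Taken as a whole, the 9 genes made up a small share of each library. Their share of the RPKM sum without Rn45s had a median of 0.0886% at Day 15 (0.0651% to 0.199%), 0.116% at Day 5 (0.0521% to 0.347%) and 0.0319% in controls (0.00588% to 0.0868%). A median of 6 of the 9 genes reached an RPKM of 1 in a library at Day 15, 6 at Day 5 and 2 in controls. Day 5 replicate 1 held all 9 at that level, and Control replicates 8 and 10 held 0 of them.

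**Figure D1:**
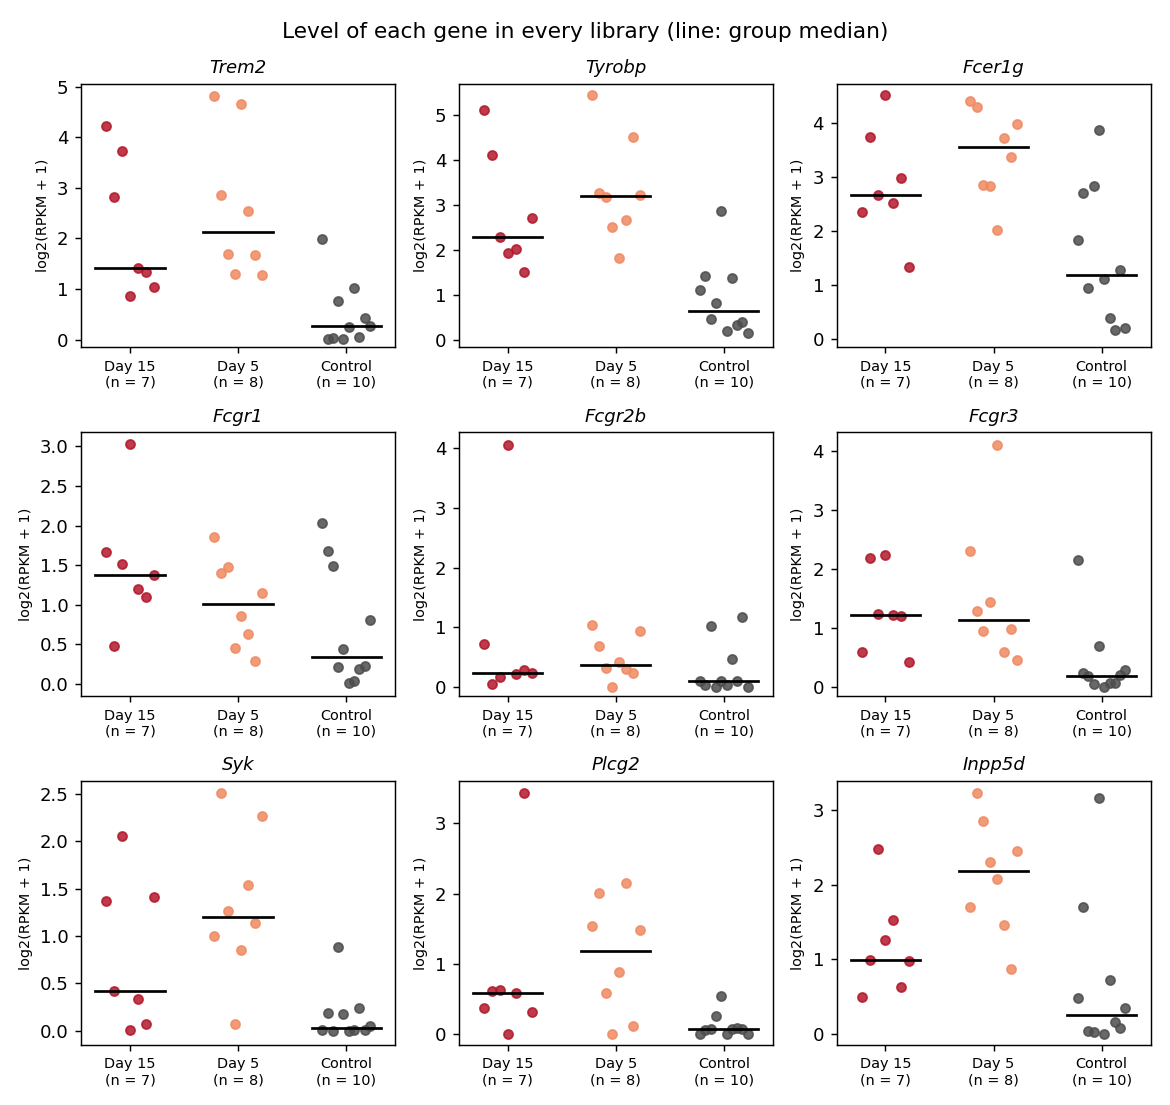
Level of each of the 9 genes in every library, as log2(RPKM + 1), 1 point per library, with the group median as a line, for Day 15 (n = 7), Day 5 (n = 8) and Control (n = 10). The medians of all 9 genes stand higher at both days than in controls, and every gene's groups overlap.

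Trem2, the lipid-sensing receptor, stood higher with stroke. Its level ran from 0.805 RPKM to 17.8 RPKM with a median of 1.68 RPKM at Day 15, from 1.43 RPKM to 27.3 RPKM with a median of 3.54 RPKM at Day 5 and from 0.00279 RPKM to 2.99 RPKM with a median of 0.201 RPKM in controls. All 8 Day 5 libraries and 6 of 7 Day 15 libraries lay above all controls but replicate 1, which held the 2.99 RPKM. The highest levels were in Day 5 replicates 1 and 7 (27.3 and 24.3 RPKM) and Day 15 replicate 2. At Day 5 the log2 change against control was 2.12 (SE 0.57, limma adjusted p = 0.0241), and without Day 5 replicate 1 it was 1.804 (limma adjusted p = 0.0601).

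Tyrobp, the adaptor through which Trem2 signals, also stood higher with stroke. Its level ran from 1.88 RPKM to 33.2 RPKM with a median of 3.90 RPKM at Day 15, from 2.55 RPKM to 42.1 RPKM with a median of 8.16 RPKM at Day 5 and from 0.127 RPKM to 6.29 RPKM with a median of 0.586 RPKM in controls. Every stroke library of either day lay above all controls but replicate 5, the one rich in Rn45s. The log2 change at Day 5 against control was 2.40 (SE 0.60, limma adjusted p = 0.0139), and the call was met in each of the 25 fits that left out 1 library (limma adjusted p from 0.00788 to 0.0405).

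Fcer1g, the adaptor of the activating Fc receptors, was the most abundant of the 9 genes by median in all 3 groups. Its level ran from 1.53 RPKM to 21.9 RPKM with a median of 5.37 RPKM at Day 15, from 3.08 RPKM to 20.3 RPKM with a median of 10.8 RPKM at Day 5 and from 0.118 RPKM to 13.6 RPKM with a median of 1.29 RPKM in controls. It overlapped more with controls than Tyrobp did: 3 of 8 Day 5 libraries and 1 of 7 Day 15 libraries exceeded the highest control, which was again replicate 5. The log2 change at Day 5 against control was 1.91 (SE 0.61, limma adjusted p = 0.0493), just inside the threshold, and the call was met in 8 of the 25 fits that left out 1 library.

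Neither Fcgr1 nor Fcgr3, the receptors within this set that use Fcer1g, passed at Day 5. Fcgr1, the high-affinity receptor for IgG, ran from 0.389 RPKM to 7.14 RPKM with a median of 1.59 RPKM at Day 15, from 0.225 RPKM to 2.61 RPKM with a median of 1.02 RPKM at Day 5 and from 0.00835 RPKM to 3.09 RPKM with a median of 0.268 RPKM in controls. No Day 5 library exceeded the highest control. Its log2 change at Day 5 was 0.30 (SE 0.42, limma adjusted p = 0.670), less than the median change of all genes, and it was -0.167, -0.330 and -0.169 under upper-quartile scaling, quantile normalization and scaling to the same sum without Rn45s. Fcgr3, a low-affinity activating receptor, ran from 0.347 RPKM to 3.75 RPKM with a median of 1.33 RPKM at Day 15, from 0.369 RPKM to 16.3 RPKM with a median of 1.22 RPKM at Day 5 and from a listed 0 to 3.45 RPKM with a median of 0.145 RPKM in controls. All 8 Day 5 and all 7 Day 15 libraries were above the control median, while Control replicate 1 exceeded 6 of the 8 Day 5 libraries. Its log2 change at Day 5 was 1.13 (SE 0.45, limma adjusted p = 0.103), and without Day 5 replicate 7, which held the 16.3 RPKM, it was 0.76.

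Fcgr2b, the inhibitory receptor, was low in most libraries and was not tested. It ran from 0.0407 RPKM to 15.7 RPKM with a median of 0.177 RPKM at Day 15, from a listed 0 to 1.05 RPKM with a median of 0.293 RPKM at Day 5 and from a listed 0 to 1.27 RPKM with a median of 0.0714 RPKM in controls. The 15.7 RPKM was in Day 15 replicate 6, and the next highest Day 15 library held 0.641 RPKM. Fcgr3 exceeded Fcgr2b in 5 of 7 Day 15 libraries, 7 of 8 Day 5 libraries and 5 of 10 controls, and Fcgr1 exceeded it in 6 of 7 Day 15 libraries, 8 of 8 Day 5 libraries and 7 of 10 controls. Fcgr2b and Fcgr3 are paralogs that resemble each other in the part outside the cell, so how reads they share were counted is uncertain.

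Below the adaptors, Syk, the kinase that docks on them, was near 0 in controls. It ran from 0.00696 RPKM to 3.16 RPKM with a median of 0.337 RPKM at Day 15, from 0.0468 RPKM to 4.69 RPKM with a median of 1.30 RPKM at Day 5 and from a listed 0 to 0.845 RPKM with a median of 0.0200 RPKM in controls. Of the 8 Day 5 libraries 6 exceeded every control, as did 3 of 7 Day 15 libraries. The log2 change at Day 5 against control was 1.17 (SE 0.33, limma adjusted p = 0.0288), a call that was lost when Day 5 replicate 3, Day 5 replicate 10, Control replicate 9 or Control replicate 10 was left out (limma adjusted p from 0.0504 to 0.0718).

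Plcg2, the phospholipase that Syk activates, was below the filter, with 6 of 8 Day 5 and 4 of 7 Day 15 libraries above every control. It ran from 0.00616 RPKM to 9.76 RPKM with a median of 0.502 RPKM at Day 15, from a listed 0 to 3.46 RPKM with a median of 1.32 RPKM at Day 5 and from a listed 0 to 0.456 RPKM with a median of 0.0515 RPKM in controls. The 9.76 RPKM was in Day 15 replicate 8, where the next highest Day 15 value was 0.539 RPKM.

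Inpp5d, the phosphatase that opposes these signals, ran from 0.403 RPKM to 4.59 RPKM with a median of 0.989 RPKM at Day 15, from 0.823 RPKM to 8.36 RPKM with a median of 3.56 RPKM at Day 5 and from a listed 0 to 7.93 RPKM with a median of 0.192 RPKM in controls. Every stroke library lay above the control median, but Control replicate 5, with 7.93 RPKM, exceeded all libraries but Day 5 replicate 3. The log2 change at Day 5 against control was 1.45 (SE 0.48, limma adjusted p = 0.0543), just outside the threshold, and it passed in 4 of the 25 fits that left out 1 library.

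**Figure D2:**
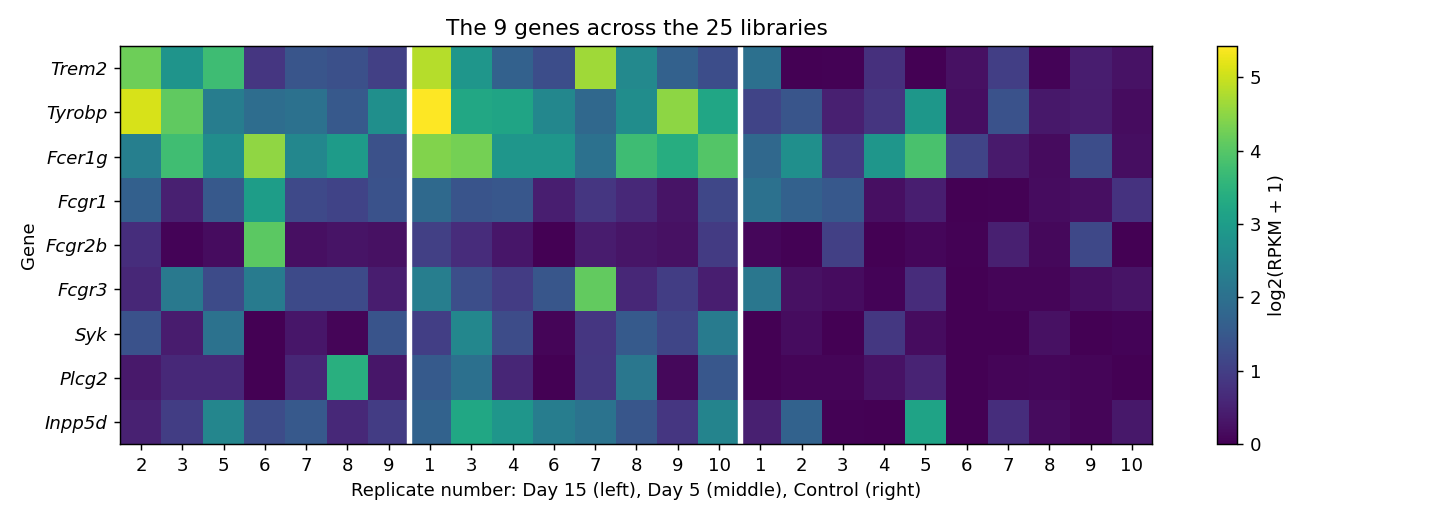
The 9 genes (rows) across the 25 libraries (columns, numbered by replicate, with Day 15 at the left, Day 5 in the middle and Control at the right), coloured by log2(RPKM + 1). Day 5 replicate 1 is the highest Day 5 library for Trem2, Tyrobp, Fcer1g, Fcgr1 and Fcgr2b, and Day 15 replicate 6 the highest Day 15 library for Fcer1g, Fcgr1, Fcgr2b and Fcgr3, while Fcgr3 peaks at Day 5 in replicate 7 and Plcg2 at Day 15 in replicate 8.

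At Day 5 against control, 4 of the 7 tested genes passed, all higher: Trem2, Tyrobp, Fcer1g and Syk. Syk entered the fit through stroke libraries alone, so its call was favoured by the filter. Trem2, Tyrobp and Fcer1g reached an RPKM of 1 in all 8 Day 5 libraries but in 2, 4 and 6 of the 10 controls. Controls alone would not have admitted them, so their calls were favoured by the filter as well. Over all 4319 genes 6.04% passed, 6.02% as higher and 0.0232% as lower. Leaving out 1 library moved the count of 261 to between 96 (without Day 5 replicate 3) and 418 (without Day 5 replicate 7), and to 134 to 170 when any of Day 5 replicates 1 and 10 and Control replicates 1, 3, 4, 6, 9 and 10 was left out. The count of 4 was 2 when any of Day 5 replicates 1, 3 and 10 and Control replicates 9 and 10 was left out. Since the genes were chosen with this comparison known, nothing is read from the difference. The median log2 change was 1.45 over the 7 and 0.61 over all genes tested, with 84.9% of all genes above 0. The genes tested were thus displaced upward at Day 5, while without the filter the median over 22610 genes was 0.077. Over the genes tested the median was 0.10, -0.02 and 0.15 under upper-quartile, quantile and sum scaling. Of all calls 260 of 261 were higher, against 18 of 22, 14 of 20 and 29 of 33 under those scalings. Relative to the median of all genes the changes were 1.79 for Tyrobp, 1.51 for Trem2, 1.30 for Fcer1g, 0.84 for Inpp5d, 0.56 for Syk, 0.52 for Fcgr3 and -0.31 for Fcgr1. Under each of these 3 scalings 0 of the 7 passed in limma, with log2 changes of 1.43 to 1.66 for Trem2 (limma adjusted p from 0.126 to 0.204), 1.74 to 1.85 for Tyrobp (0.0716 to 0.0975), 1.16 to 1.28 for Fcer1g (0.278 to 0.372) and 0.67 to 0.93 for Syk (0.0886 to 0.286). Without the filter, or with detected genes per library as a covariate, 0 passed as well, while 6 passed with a pseudocount of 0.1. Replicate numbers 1 to 6 and 7 to 10, which the labels do not call batches, were also fitted apart. Within 1 to 6 the Day 5 changes were 2.16 for Trem2, 2.44 for Tyrobp, 1.38 for Fcer1g and 1.00 for Syk. Within 7 to 10 they were 2.101 for Trem2, 2.48 for Tyrobp, 2.77 for Fcer1g and 1.37 for Syk. In either range 0 passed (limma adjusted p from 0.117 to 0.439 for these genes), beside 4 of all 4319 genes tested.

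At Day 15 against control 0 of the 7 genes passed in limma, against 0.0926% of all genes, and 3 had an unadjusted limma p under 0.05, as did 8.87% of all genes. Tyrobp had a log2 change of 1.89 (SE 0.62, limma adjusted p = 0.240), Trem2 one of 1.72 (SE 0.60, limma adjusted p = 0.279) and Fcer1g one of 1.34 (SE 0.63, limma adjusted p = 0.543). The others had 0.91 for Fcgr3, 0.77 for Fcgr1, 0.65 for Syk and 0.52 for Inpp5d. The median was 0.91 over the 7 and 0.17 over all genes. Both day comparisons use the same 10 controls, so their likeness is not a result. With a pseudocount of 0.1 Trem2 passed at Day 15 (limma adjusted p = 0.0445), beside 38 of all 4319 genes tested.

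Between the days, 0 of the 7 genes passed in limma at Day 15 against Day 5, as did 0% of all genes. Of the 7, 0 had an unadjusted limma p under 0.05, beside 14.7% of all genes. Inpp5d had the largest difference, with a median of 0.989 RPKM at Day 15 and 3.56 RPKM at Day 5 and a log2 change of -0.92 (SE 0.52, limma adjusted p = 0.406). Syk had -0.52 (SE 0.36), Tyrobp -0.51 (SE 0.65), Trem2 -0.40 (SE 0.63) and Fcer1g -0.56 (SE 0.67), beside a median of -0.44 over all genes. Leaving out 1 library moved Tyrobp to between -0.89 (without Day 15 replicate 2) and -0.21 (without Day 5 replicate 1), Trem2 to between -0.74 and -0.08 without the same libraries, and Fcer1g to between -0.84 (without Day 15 replicate 6) and -0.31 (without Day 15 replicate 9), with 0 passing. Fcgr1 had 0.46 (SE 0.46), the one positive value among the 7.

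**Figure D3:**
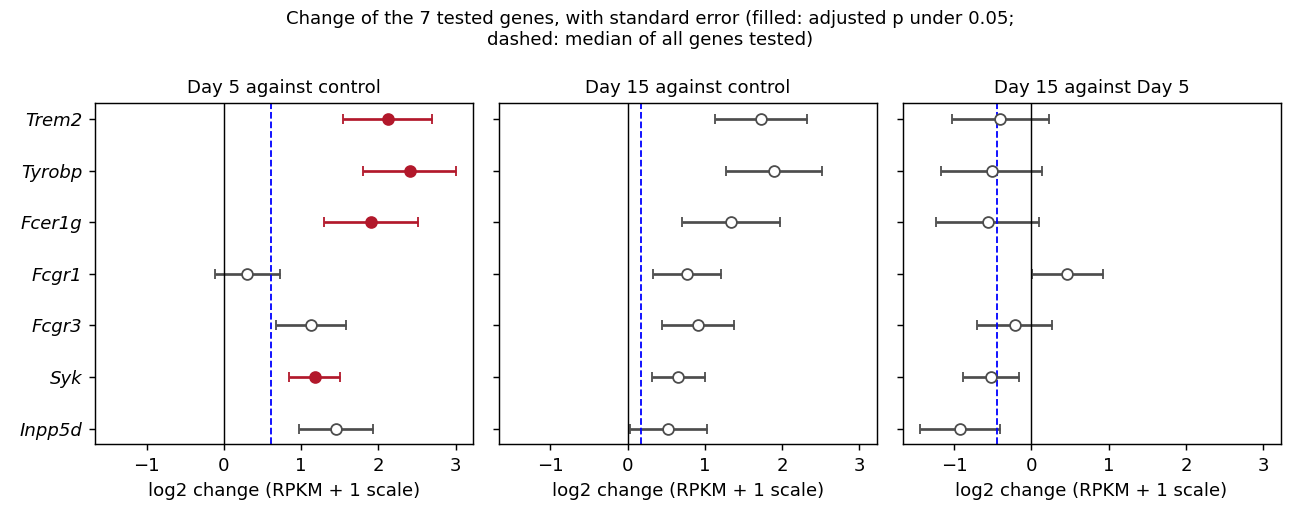
Log2 change (RPKM + 1 scale) with its standard error for the 7 tested genes in the 3 comparisons, with the median of all genes tested as a dashed line. Filled points (Tyrobp, Trem2, Fcer1g and Syk at Day 5 against control) passed at a limma adjusted p under 0.05, and 0 passed in the other comparisons.

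By median level the order was Fcer1g, Tyrobp, Trem2, Fcgr1, Fcgr3, Inpp5d, Plcg2, Syk and Fcgr2b at Day 15. At Day 5 it was Fcer1g, Tyrobp, Inpp5d, Trem2, Plcg2, Syk, Fcgr3, Fcgr1 and Fcgr2b. In controls it was Fcer1g, Tyrobp, Fcgr1, Trem2, Inpp5d, Fcgr3, Fcgr2b, Plcg2 and Syk. Fcer1g exceeded Tyrobp in 4 of 7 Day 15 libraries, 5 of 8 Day 5 libraries and 8 of 10 controls, so at either day the lead of one adaptor over the other did not hold from library to library. Tyrobp exceeded Trem2 in 6 of 7 Day 15 libraries and exceeded Inpp5d in 7 of 8 Day 5 libraries. Inpp5d and Trem2 at Day 5 were each ahead in 4 of 8 libraries, and Fcgr3 and Fcgr1 likewise. Fcgr2b was below Fcgr1 in all 8 Day 5 libraries.

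Receptors and adaptors were next compared from library to library within each group, on the log2(RPKM + 1) scale, for 3 pairs of genes in 3 groups (9 relations). Fcgr3 and its adaptor Fcer1g were high and low together at Day 15 (Pearson r = 0.95, two-sided exact permutation p = 0.000992, adjusted p = 0.00893, n = 7). The rank correlation was 0.89 (exact permutation p = 0.0123, adjusted p = 0.0980), and r was 0.85 without replicates 3 and 6, which lay farthest from the median of Fcgr3. The same pair had r = -0.51 at Day 5 (exact permutation p = 0.197, adjusted p = 0.354, n = 8; rank correlation -0.24, exact p = 0.582) and 0.26 in controls (permutation p = 0.508, adjusted p = 0.762, n = 10; rank correlation 0.26, p = 0.467). Tyrobp and Fcer1g, adaptors of different receptors, had r = 0.76 in controls (permutation p = 0.00850, adjusted p = 0.0382; rank correlation 0.67, p = 0.0382, adjusted p = 0.115), which fell to 0.30 without replicates 2 and 5 and so rests on those libraries. They had r = -0.14 at Day 15 (exact permutation p = 0.780) and 0.66 at Day 5 (exact permutation p = 0.0773, adjusted p = 0.174; rank correlation 0.81, exact p = 0.0218, adjusted p = 0.0980), with r = 0.11 at Day 5 without replicates 1 and 7. Trem2 and Tyrobp, receptor and adaptor of 1 complex, had r = 0.71 at Day 15 (exact permutation p = 0.0675, adjusted p = 0.174), 0.16 at Day 5 (exact permutation p = 0.715) and 0.03 in controls (permutation p = 0.923). Whether these correlations differ between groups was not tested.

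**Figure D4:**
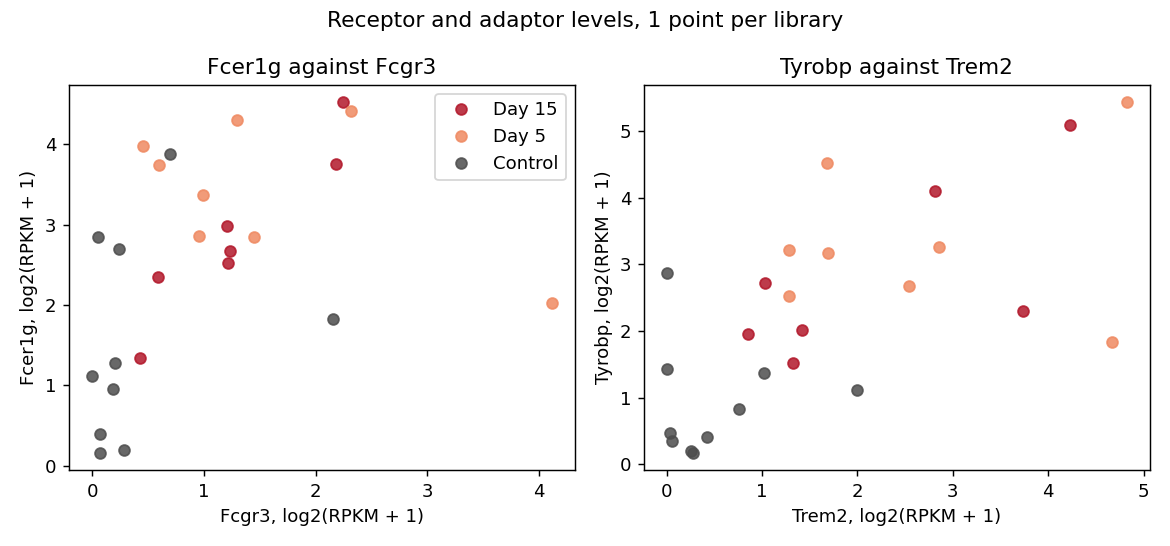
Adaptor against receptor level, both as log2(RPKM + 1), with 1 point per library coloured by group, for Fcer1g against Fcgr3 at the left and Tyrobp against Trem2 at the right. The 7 Day 15 points of Fcer1g and Fcgr3 lie near a line (r = 0.95), while Day 5 replicate 7 stands apart at the highest Fcgr3 with a low Fcer1g.

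The genes most like Tyrobp over the 25 libraries, by Pearson correlation of log2(RPKM + 1) and given as a description, were H2-Ab1, a chain of the class II antigen-presenting molecule (r = 0.83), Nceh1, a cholesterol ester hydrolase (0.83), Lgals3bp, a secreted galectin-binding glycoprotein (0.82), Iqgap1, a cytoskeletal scaffold (0.81), and Rpl32, a ribosomal protein (0.80). After the group means were taken out, these were 0.80, 0.60, 0.71, 0.69 and 0.71. Those most like Trem2 were Ifngr2, a chain of the interferon gamma receptor (r = 0.81), Tmem86a (0.79), Tpp1, a lysosomal peptidase (0.76), Lgals3bp (0.75) and Map2k4, a stress kinase (0.75). Trem2 and Tyrobp had r = 0.66 with each other over all libraries and 0.35 after the group means were taken out. Tyrobp had r = 0.62 and Trem2 0.48 with the number of genes detected in a library.

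The rest of the pathway was read in 7 lists of 92 genes, of which 91 were in the table and 38 were tested. At Day 5 against control 8 of the 38 passed, all higher, beside 6.02% of all genes tested. The lists were chosen with this comparison known, so nothing is read from that or from the counts below. The median log2 change of the 38 was 1.11, beside 0.61 over all genes. The count of 8 was 3 to 5 when Day 5 replicate 1, 3, 4 or 10 or Control replicate 3, 6, 7, 9 or 10 was left out. At Day 15 against control 0 of 38 passed in limma and 11 had an unadjusted p under 0.05, as did 8.87% of all genes. At Day 15 against Day 5 0 passed and 10 had such a p, as did 14.7% of all genes. Of the Trem2 ligands and proteins that shed it, 1 of 6 passed. This was Apoe, the lipid carrier that Trem2 binds, with 15.0 to 168 RPKM at Day 5 (median 76.0 RPKM) and 1.51 to 17.2 RPKM in controls (median 3.49 RPKM). Its log2 change was 3.83 (SE 0.73, limma adjusted p = 0.00204), and it was the one of the 8 that passed under all 3 scalings.

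Inhibitory receptors and phosphatases held most of the other calls, with 5 of 13 tested genes higher at Day 5 and 0 lower, beside 6.02% of all genes higher. Sirpa, the receptor for the don't-eat-me signal CD47, had a median of 8.26 RPKM at Day 5 and 0.505 RPKM in controls, with 1 Day 5 library, replicate 3, at 665 RPKM (log2 change 2.92, SE 0.69, limma adjusted p = 0.0116). Cd300a, an inhibitory receptor for phospholipids, had a median of 2.75 RPKM at Day 5 and 0.109 RPKM in controls (log2 change 2.12, limma adjusted p = 0.00554). Sirpa and Cd300a kept their call in all 25 fits that left out 1 library and passed under 1 of the 3 scalings. Lair1, an inhibitory collagen receptor, had a log2 change of 1.72 (limma adjusted p = 0.0398), Cd72, an inhibitory coreceptor best known from B cells, 1.36 (limma adjusted p = 0.0483) and Ptpn6, the phosphatase SHP1 that inhibitory receptors recruit, 0.91 (limma adjusted p = 0.0416). Of the 25 fits that left out 1 library, Lair1 passed in 12, Cd72 in 9 and Ptpn6 in 14, and each passed under 0 of the 3 scalings.

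Among adaptors and effectors after Syk, 2 of 12 tested genes were higher at Day 5, beside the same 6.02%. Lcp2, the adaptor SLP-76, had a median of 3.72 RPKM at Day 5 and 0.309 RPKM in controls (log2 change 1.87, SE 0.52, limma adjusted p = 0.0270), a call lost without Day 5 replicate 1, 3 or 4. Prkcd, a protein kinase C that diacylglycerol activates, had a median of 3.56 RPKM at Day 5 and 0.247 RPKM in controls (log2 change 1.54, SE 0.41, limma adjusted p = 0.0235), a call lost without Day 5 replicate 3. Neither passed under any of the 3 scalings. Src family kinases, which phosphorylate the adaptors, had 0 of 3 tested genes passing, with Lyn at 1.09 (limma adjusted p = 0.269). Of the list of other Fc receptors and partners of Fcer1g, 0 of 3 tested genes passed. That list also held Clec7a, a beta-glucan receptor that is neither an Fc receptor nor a typical partner of Fcer1g. Its log2 change was 1.40 (limma adjusted p = 0.162). Of the other receptors that use Tyrobp or Hcst, Siglech was the 1 tested, at 0.64 (limma adjusted p = 0.299), and it had 1.65 at Day 15 (limma adjusted p = 0.0850). None of the 5 other Trem family receptors entered the fit.

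**Figure D5:**
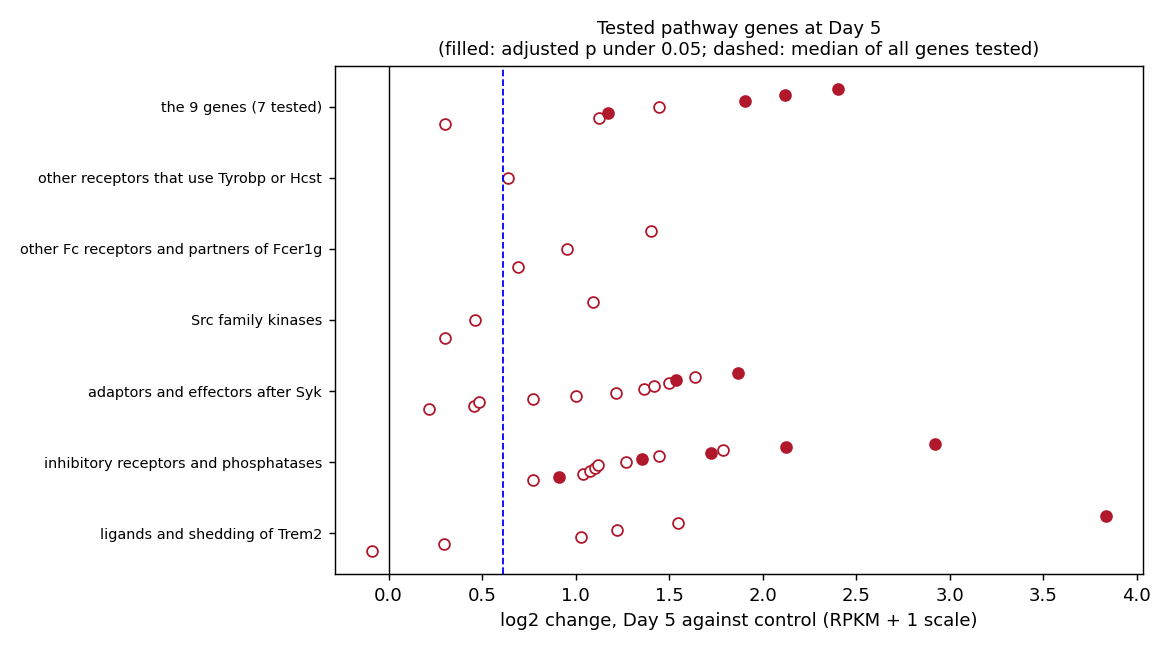
Log2 change at Day 5 against control (RPKM + 1 scale) of each tested gene, 1 point per gene, for the 9 genes (7 tested) and for 6 pathway lists with tested genes. Filled points passed at a limma adjusted p under 0.05, the dashed line is the median of all genes tested (0.61), and Apoe lies farthest to the right at 3.83.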

How the data were processed

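RNA-seq of 25 laser-captured mouse brain samples was analysed. A Nugen Ovation kit amplified the cDNA, which was sequenced in paired ends, per the labels' protocols. The tools were STAR 2.1.4a, HTSeq and CASAVA 1.8.3, on build mm9, per the submitters' processing notes. Strand handling is not stated there. The authors deposited RPKM, 1 column per library. They did not step in whole reads, so the read depth cannot be had and counting intervals are left out. Amplification from little RNA can lose low transcripts.

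The 9 genes and all gene lists were chosen with earlier results of these data known. Values were taken as log2(RPKM + 1) with a pseudocount of 1 and fitted in limma 3.58.1 (R 4.3.3), all 3 groups together, with an intensity trend and robust variances, two-sided, at an adjusted p of 0.05. The fit was tested on simulated data. The labels gave groups and replicate numbers. The text names the 9 genes, the pathway list genes that passed or else the one with the smallest Day 5 p, and the 5 genes most like Tyrobp and Trem2. Correlations used permutation tests (Python 3.11.15, scipy 1.17.1, numpy 2.4.6), exact below 10 libraries and with 100000 resamples at 10. Alternatives were other pseudocounts, filters, scalings, covariates, library weights, a replicate block and leaving out libraries. Fits without the libraries rich in Rn45s, without the resembling libraries and within ranges of replicate numbers, and marker sums without Ctss or Lyz2, were added after seeing the data. Promoter windows are RefSeq's on GRCm38.p6, and no coordinates of these builds were joined.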

Additional observations from a re-analysis of the deposited data

Results flagged for a closer look

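Of 27 sets of libraries (9 genes in 3 groups), 7 held a library that stood apart from the rest of its group, at the top in each case. For normally distributed values, chance gives such a gap in about 1 set in 20. The values here are bounded at 0 and many lie near it, so the rate for them is unknown. Beside each, the next highest library of the group is given. Fcgr2b reached 15.7 RPKM in Day 15 replicate 6, with 0.641 RPKM next. Plcg2 reached 9.76 RPKM in Day 15 replicate 8, with 0.539 RPKM next. In controls, Tyrobp reached 6.29 RPKM (1.70 RPKM next) and Plcg2 0.456 RPKM (0.194 RPKM next) in replicate 5. Trem2 reached 2.99 RPKM (1.02 RPKM next) and Fcgr3 3.45 RPKM (0.620 RPKM next) in Control replicate 1. Syk reached 0.845 RPKM in Control replicate 4, with 0.183 RPKM next. No library at Day 5 stood apart in this way.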

How the results depend on the processing

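Of the 9 genes, 4 passed at Day 5 against control. The count was 0 without a filter, under upper-quartile, quantile and sum scaling, with detected genes as a covariate and within replicate numbers 1 to 6 or 7 to 10. It was 2 at a mean RPKM of at least 1, where Syk was not tested and Fcer1g did not pass (limma adjusted p = 0.0655). Leaving out 1 library gave 2 to 5. At Day 15 against control it was 0, or 1 with a pseudocount of 0.1. The pathway lists had 8 genes at Day 5. They had 18 with a pseudocount of 0.1, 2 without a filter, 5 at a mean RPKM of at least 1, 1 under upper-quartile or quantile scaling, 3 under sum scaling, 0 with detected genes as a covariate or within either number range, 5 without the 2 resembling libraries, and 3 to 10 leaving out 1 library. At Day 15 they had 0, or 4 with a pseudocount of 0.1, 1 under upper-quartile scaling or in a fit of the compared groups alone, 2 with library weights, and 0 to 2 leaving out 1 library. The cause was not tested, and the counts over all genes are given next.

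Over all genes, 261 passed at Day 5, against 96 to 418 leaving out 1 library, 24 without a filter and 553 with a pseudocount of 0.1. There were 22, 20 and 33 under upper-quartile, quantile and sum scaling, and 0 with detected genes as a covariate (447 at an unadjusted p under 0.05). At a mean RPKM of at least 1, 170 of 5373 genes passed. Without the 2 resembling libraries 216 passed, and within either number range 4. At Day 15 against control, 4 genes passed over all genes, against 38 with a pseudocount of 0.1 and 9 under upper-quartile scaling. There were 2 in a fit of the compared groups alone, 29 with library weights and 0 to 6 leaving out 1 library. Changes of sign were confined to uncalled values. Fcgr1 at Day 5 had -0.167, -0.330 and -0.169 under upper-quartile, quantile and sum scaling. At Day 15 against Day 5, Trem2 had 0.24 within numbers 1 to 6, Tyrobp 0.0045 with detected genes as a covariate, and Fcgr3 0.0296 and 0.13 under upper-quartile and quantile scaling, 0.0616 within numbers 1 to 6 and from -0.38 to 0.15 leaving out 1 library. Libraries with the same number did not deviate together (r from -0.06 to 0.08 over 20 pairs), so the numbers were not taken as pairs. A replicate block moved the count over all genes at Day 5 to 499 and left that of the 9 genes within 1.5 times.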

Other observations

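Trem family genes below the filter had isolated high values. Treml4, picked after its values were seen, reached 28.2 RPKM in Day 5 replicate 6, with a Day 5 median of 0.00421 RPKM and a control median of a listed 0. Cd33, a sialic acid-binding inhibitory receptor of myeloid cells, did not pass in limma at either day, and had a median of 5.27 RPKM at Day 15 (0.540 to 87.9 RPKM), 1.23 RPKM at Day 5 (0.714 to 12.1 RPKM) and 0.158 RPKM in controls (a listed 0 to 4.38 RPKM). Pik3cg, a myeloid lipid kinase subunit, likewise did not pass, and had 4.99 RPKM at Day 15 (0.874 to 35.7 RPKM), 2.64 RPKM at Day 5 (0.384 to 11.4 RPKM) and 0.128 RPKM in controls (0.00770 to 2.03 RPKM). Both were picked after their values were seen.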
